A study of Mus musculus with 16 samples.

Results

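Expression of 38 genes of the macrophage and osteoclast lineage was followed in chondrocyte-enriched cultures that differed in genotype and in exposure to tumor necrosis factor α (TNFα). The genes were chosen by symbol as known genes of the lineage, with earlier results of these data known. Each of the 38 genes matched by symbol 1 of the 55414 gene identifiers counted. They comprise 11 identity and adhesion markers, the receptor for colony-stimulating factor 1 and the transcription factor gene Spi1, 2 lysosomal enzymes, 6 Fc receptors and ITAM adaptors, 6 lectins and scavenger receptors, 5 complement components and receptors, 2 chemokine receptors and 4 osteoclast genes. Cells came from the epiphyses of newborn mice, either heterozygous Notch2tm1.1Ecan mice or their wild type littermates, with males and females pooled. The Notch2tm1.1Ecan allele is carried in the germ line and gives a NOTCH2 gain-of-function in every cell that expresses Notch2, so any cell type in the culture can carry it. The cultures were enriched for chondrocytes by dissection and digestion of cartilage and were not sorted. Each genotype was exposed for 6 h to vehicle (phosphate-buffered saline) or to TNFα at 50 ng/ml, and 4 biological replicates per group were sequenced, 16 libraries in all. The groups are called control vehicle, Notch2 vehicle, control TNFα and Notch2 TNFα. The sample labels state that serum was withdrawn for the TNFα groups alone, whereas the study's methods describe serum-free medium for both treatments, so in a comparison of TNFα with vehicle the cytokine and a change of serum cannot be told apart. In bulk RNA, fewer or more cells of a type and less or more RNA per cell cannot be told apart either.

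Macrophages arise from embryonic precursors or blood monocytes, and their survival depends on CSF1 acting through its receptor CSF1R. The factor PU.1, encoded by Spi1, is required for the lineage and binds purine-rich sites next to many of its genes. Osteoclasts form when precursors of the same lineage meet CSF1 and RANKL, fuse by means of DC-STAMP and OC-STAMP, and secrete cathepsin K (Ctsk) and tartrate-resistant acid phosphatase (Acp5). Neither Ctsk nor Acp5 is restricted to osteoclasts, and mesenchymal cells also express Ctsk.

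Upstream sequences were examined because PU.1 is encoded by a member and most members moved together between genotypes. RefSeq start sites on GRCm38.p6 were available for 28 of the 38 genes. The letters GAGGAA, the core of a PU.1 site, were searched on both strands in the 250 bases before each start and were found for 17 of the 28 members (60.7%), compared with 25.9% of 27018 genes with a window of that length. The longer form GAGGAAGT, which contains the core, was present for 1 member, C1qc (3.57%), compared with 2.79% of genes, and the NF-κB consensus was present for C1qc and Fcgr3 (7.14%), compared with 8.24% of genes. The motifs were chosen after expression values had been seen, and a match describes letters in a window and not a bound site. The core was also present for Ctsk, Itgam, Fcgr1 and Clec7a, which did not differ detectably between genotypes. It was absent for Lyz2, Fcer1g, Ms4a7 and C5ar1, which differed between genotypes under both treatments. Whether the core goes with the genotype difference was not tested. The windows of 5 genes are shown, written 5′ to 3′ on the strand of the gene with GAGGAA or its reverse complement TTCCTC in capitals. Marco and Clec4e are shown because they had the highest relative rises with TNFα, C1qb and Trem2 because they differed between genotypes, and C3ar1 because it differed between genotypes and its window holds neither form.
Marco (chr1:120505025-120505274, minus strand): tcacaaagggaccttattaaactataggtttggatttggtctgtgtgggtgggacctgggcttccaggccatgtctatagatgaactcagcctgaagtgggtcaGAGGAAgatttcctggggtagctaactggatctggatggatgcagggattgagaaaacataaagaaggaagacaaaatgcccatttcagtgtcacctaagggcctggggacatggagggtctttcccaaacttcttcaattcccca
Clec4e (chr6:123289872-123290121, minus strand): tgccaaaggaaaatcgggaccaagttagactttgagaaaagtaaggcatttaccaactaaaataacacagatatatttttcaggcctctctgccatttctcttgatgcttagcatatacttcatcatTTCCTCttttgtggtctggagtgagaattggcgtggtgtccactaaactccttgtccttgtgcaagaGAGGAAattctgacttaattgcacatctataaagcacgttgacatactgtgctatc
C1qb (chr4:136886201-136886450, minus strand): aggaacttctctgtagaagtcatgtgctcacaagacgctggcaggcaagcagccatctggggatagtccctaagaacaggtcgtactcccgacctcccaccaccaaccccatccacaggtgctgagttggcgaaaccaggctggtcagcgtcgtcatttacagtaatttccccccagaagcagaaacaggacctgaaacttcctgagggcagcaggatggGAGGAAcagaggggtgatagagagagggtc
Trem2 (chr17:48346151-48346400, plus strand): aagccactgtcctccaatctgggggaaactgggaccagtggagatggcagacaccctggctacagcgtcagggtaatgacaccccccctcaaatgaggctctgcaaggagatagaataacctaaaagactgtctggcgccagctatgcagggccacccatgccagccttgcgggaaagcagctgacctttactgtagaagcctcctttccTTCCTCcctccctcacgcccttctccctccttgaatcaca
C3ar1 (chr6:122856158-122856407, minus strand): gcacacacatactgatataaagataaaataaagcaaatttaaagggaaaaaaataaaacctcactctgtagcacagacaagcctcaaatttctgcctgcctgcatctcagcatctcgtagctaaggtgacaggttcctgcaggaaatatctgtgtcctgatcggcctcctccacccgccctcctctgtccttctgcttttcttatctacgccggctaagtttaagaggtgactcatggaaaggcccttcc

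Libraries held 3439726 to 44237300 counts on genes, and the shallowest was Notch2 TNFα library 4. The first principal component carried 77.8% of the variance and separated treatments, but control vehicle library 4 scored -14.2, compared with -57.2 to -54.7 in the other 7 vehicle libraries, and control TNFα library 4 scored 39.5, compared with 50.7 to 54.6 in the other 7 TNFα libraries. Control vehicle library 4 also had Icam1, a TNFα-induced adhesion gene, at 439 CPM, meaning counts normalised for library size, compared with 34.4 to 40.4 CPM in the other control vehicle libraries. The number of members called for TNFα in control cells is therefore given with both libraries and without them, with the calls lost. Fold changes and levels in control cells, and all values of other gene lists, include both libraries unless stated. The Notch target Heyl was 0.232 ± 0.0617 CPM in control vehicle and 1.95 ± 0.411 CPM in Notch2 vehicle (SD, n = 4), and 0.282 ± 0.198 and 1.70 ± 0.373 CPM with TNFα, and every Notch2 library exceeded every control library. Notch2 itself, counted over both alleles, does not check the labels. Summed chondrocyte markers, 16 genes that include collagens of cartilage, reached 53965 ± 1549 CPM in control vehicle, the highest sum of any cell type list in that group. The sum of 8 fibroblast markers was 33112 ± 1244 CPM there. It exceeded the chondrocyte sum in Notch2 vehicle (37693 against 34499 CPM) and in Notch2 TNFα (39680 against 22336 CPM). The lists differ in size, so their sums do not measure shares of cell types.

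Members ranged widely in level. Ctsk had the highest level per kb of exon in every group, at 61.5 ± 1.63 CPM per kb in control vehicle and 62.2 ± 3.89 CPM per kb in Notch2 vehicle. Lyz2, lysozyme of myeloid cells, came next in every group, at 11.7 ± 0.532 and 22.3 ± 1.92 CPM per kb, followed by Cd68 at 6.21 ± 0.254 and 9.78 ± 1.62 and Tyrobp at 2.08 ± 0.188 and 6.00 ± 0.574 CPM per kb. Acp5 was 1.81 ± 0.116 CPM per kb in control vehicle, close to Tyrobp on this measure. The length used covers all annotated exons of a gene, 4394 bases for Acp5 and 682 for Tyrobp, so the ranking depends on the annotation. Before division by length, Acp5 was 7.95 ± 0.508 CPM and Tyrobp 1.42 ± 0.128 CPM. At the other end, Ocstamp never exceeded 3 counts in a library, Dcstamp never exceeded 2, and Ccr2, the receptor that monocytes use to enter tissue, gave 1 count in 1 of the 16 libraries. A count of 0 allows up to 3 counts per library, so these 3 genes were not distinguishable from 0 at this depth. None was tested for genotype or TNFα, and Ocstamp alone entered the fit of genotype by TNFα.

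Most members were higher in Notch2 cells than in control cells, both with vehicle and with TNFα. The members were chosen with earlier results of these data known. The study had already listed some of them, such as Marco, Adgre1 and Csf1r, as differing between genotypes with TNFα. The shares of all genes called are therefore a description and not a test of the set. With vehicle, 24 of the 34 members tested were higher in Notch2 cells and 0 were lower by edgeR's quasi-likelihood test at an adjusted p under 0.05, whereas 6.19% of all 19432 genes tested were called higher (4.35% lower, 10.5% in either direction). At an unadjusted p under 0.05, which 21.7% of all genes passed, there were 26 higher and 0 lower, and DESeq2 called 23 higher and 0 lower. With TNFα, 26 of 33 were higher and 0 were lower, compared with 5.63% of 19227 genes called higher (4.31% lower, 9.94% in either direction). DESeq2 called 25 higher and 0 lower, and an unadjusted p under 0.05, which 21.4% of all genes passed, gave 28 higher and 0 lower. Among the members, the median log2 value, mutant over control, was 1.01 with vehicle and 1.13 with TNFα, compared with -0.002 and -0.012 over all genes tested. With members whose lower group was at or under 3 counts per library set to their fold over 3 counts, the medians were 0.96 and 1.13. All 4 libraries of Notch2 cells lay above all 4 of control cells for 26 of 34 members with vehicle (8.63% of all genes) and for 24 of 33 with TNFα (6.84%), and below them for 0 (7.57% and 7.97%). The vehicle and TNFα comparisons share no library. Whether the cultures given vehicle and TNFα came from the same isolations of cells was not stated. These comparisons may therefore not be independent.

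**Figure D1:**
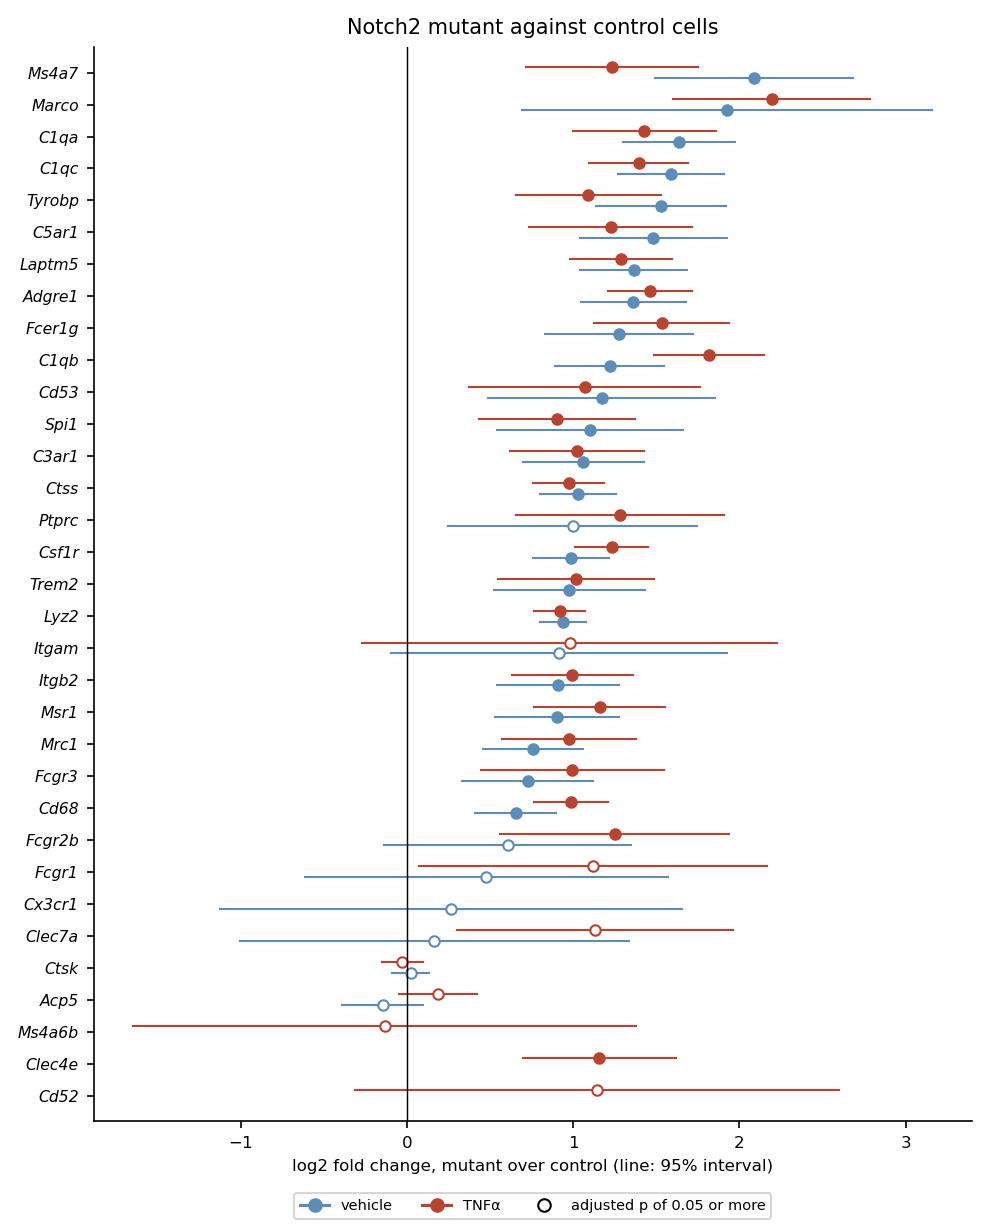
Log2 fold change of each member, Notch2 mutant over control, with its 95% interval, for vehicle (blue) and TNFα (red). Filled points passed an adjusted p under 0.05, and members with a group at or under 3 counts in every library are left out of that comparison. Filled points sit between 0.65 and 2.19, whereas Ctsk and Acp5 sit beside 0.

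Among identity and adhesion markers, 7 of 11 members were higher in Notch2 cells with vehicle and 8 of 11 with TNFα. Adgre1, which encodes the F4/80 antigen of mouse macrophages (chromosome 17, 57665573 to 57790527, GRCm39), was 3.76, 3.05, 3.28 and 2.44 CPM in the control vehicle libraries and 7.92, 8.06, 9.13 and 7.13 CPM in the Notch2 vehicle libraries. With TNFα it was 6.70, 6.80, 5.60 and 5.44 CPM in control and 19.1, 17.2, 14.9 and 14.6 CPM in Notch2 libraries. No control library reached the lowest Notch2 library under either treatment, and the log2 differences were 1.36 ± 0.15 (SE, adjusted p = 8.89e-07) and 1.46 ± 0.12 (adjusted p = 1.61e-09). Laptm5, a lysosomal membrane protein of blood cells, was 4.48, 5.56, 3.22 and 3.57 CPM in control vehicle and 12.4, 9.80, 11.5 and 9.41 CPM in Notch2 vehicle, a log2 difference of 1.36 ± 0.15 (adjusted p = 1.22e-06). With TNFα its levels were 4.73, 4.61, 3.26 and 5.28 CPM in control and 10.7, 12, 9.42 and 11.9 CPM in Notch2 libraries (1.29 ± 0.15, adjusted p = 5.3e-07). The libraries again separated completely by genotype. Cd68, a late endosomal glycoprotein, showed a smaller difference with vehicle, 8.40, 8.07, 8.69 and 8.87 against 15.8, 10.7, 14.5 and 12.5 CPM (0.65 ± 0.12, adjusted p = 0.000398), than its log2 value of 0.99 with TNFα, although the change in the difference was not called (adjusted p = 0.541). Itgb2, the integrin β2 subunit shared by leukocyte integrins, was 2.43, 2.36, 2.83 and 2.62 in control and 5.99, 5.18, 4.20 and 4.00 CPM in Notch2 libraries with vehicle and 2.92, 2.41, 3.96 and 3.66 in control and 6.09, 6.02, 6.55 and 8.0 CPM in Notch2 libraries with TNFα, log2 differences of 0.91 (adjusted p = 0.000992) and 0.99 (adjusted p = 0.000253). Ms4a7, a tetraspan membrane protein of mature macrophages, had the highest fitted genotype difference with vehicle among members counted in both groups, 0.663, 0.609, 0.386 and 0.357 against 2.34, 2.41, 2.28 and 1.68 CPM (2.09 ± 0.29, adjusted p = 1.53e-05). With TNFα it was 0.867, 1.15, 1.22 and 1.46 and 2.65, 2.51, 3.16 and 3.03 CPM (1.23 ± 0.25, adjusted p = 0.00122), again without overlap.

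Other leukocyte surface markers were near the limit of these libraries. Cd53, a tetraspanin of leukocytes, was 0.884, 0.381, 0.322 and 0.774 CPM in control vehicle and 1.58, 1.23, 0.986 and 1.61 CPM in Notch2 vehicle (1.17 ± 0.33, adjusted p = 0.0216), and 0.709, 1.21, 0.583 and 0.784 in control and 1.92, 2.05, 1.81 and 0.276 CPM in Notch2 libraries with TNFα (1.07 ± 0.34, adjusted p = 0.0428). Its last value with TNFα rests on 1 count in the shallowest library. The vehicle call was lost without Notch2 vehicle library 4, control vehicle library 2 or control vehicle library 3 (adjusted p 0.0788 to 0.115), and the TNFα call was lost without control library 1, 3 or 4 or Notch2 library 1, 2 or 3 (0.0781 to 0.164) and with DESeq2 (0.102). Ptprc, the pan-leukocyte phosphatase CD45, was 0.719, 0.761, 0.193 and 1.07 in control and 1.45, 1.74, 1.56 and 0.897 CPM in Notch2 libraries with vehicle, which did not pass (adjusted p = 0.0868), and 1.5, 0.768, 0.525 and 0.889 in control and 1.92, 2.22, 2.22 and 2.48 CPM in Notch2 libraries with TNFα (1.28 ± 0.31, adjusted p = 0.00512). It passed with vehicle when control vehicle library 4 was left out (adjusted p = 0.0384) and with no filter beyond 1 count (0.0316). Aif1, which encodes IBA1 of macrophages and microglia, had 1 count over the 4 control vehicle libraries and 15 over the Notch2 vehicle libraries, a ratio of 9.86 (95% counting interval 1.52 to 415) that did not pass (adjusted p = 0.11). With TNFα it had 2 and 27 counts, a ratio of 17.1 (4.31 to 149), which passed (adjusted p = 0.00432). Ms4a6b had 0 counts in each control vehicle library and 3, 6, 2 and 14 counts in the Notch2 vehicle libraries, at least 1.23-fold higher against 3 counts per library (adjusted p = 0.00997), and it did not differ detectably with TNFα (-0.13 ± 0.74, adjusted p = 0.947). Itgam and Cd52 stayed below 1.1 CPM in every library and passed in neither comparison, and most exon bases of Itgam are shared with a gene on the same strand. Aif1 and Cd52 also overlap genes on the opposite strand, and the strand setting of the counting was not given.

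Csf1r, the receptor whose signal keeps macrophages alive, was higher in Notch2 cells under both treatments. Its values were 6.85, 8.22, 8.30 and 6.01 CPM in control vehicle and 14.7, 14.5, 14.7 and 14.0 CPM in Notch2 vehicle, and 10.2, 8.40, 7.64 and 9.15 in control and 19.7, 20.2, 21.1 and 21.8 CPM in Notch2 libraries with TNFα. Neither pair of groups overlapped, and the log2 differences were 0.99 ± 0.11 (adjusted p = 9.51e-07) and 1.23 ± 0.11 (adjusted p = 2.29e-09). Csf1r shares exon bases with Hmgxb3 on the opposite strand. Spi1 was lower in level, 0.608, 1.07, 1.42 and 0.833 in control and 2.41, 1.90, 2.44 and 1.68 CPM in Notch2 libraries with vehicle and 3.23, 2.96, 2.1 and 1.36 in control and 4.44, 5.38, 3.74 and 3.59 CPM in Notch2 libraries with TNFα. The control and Notch2 libraries were disjoint for Spi1 as well, with log2 differences of 1.1 ± 0.27 (adjusted p = 0.00822) and 0.90 ± 0.23 (adjusted p = 0.00911). The call with TNFα was lost without Notch2 TNFα library 2 (adjusted p = 0.0825).

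Both lysosomal enzymes were higher in Notch2 cells under both treatments. Lyz2 (chromosome 10, 117111557 to 117118346) was 39.4, 40.3, 39.6 and 36.3 CPM in control vehicle and 76.3, 80.1, 75.2 and 65.1 CPM in Notch2 vehicle, and 55.1, 44.3, 44.1 and 48.0 in control and 97.8, 93.1, 84.2 and 80.0 CPM in Notch2 libraries with TNFα. No library of a control group came within the range of the matched Notch2 group, and the log2 differences were 0.94 ± 0.07 (adjusted p = 9.97e-10) and 0.92 ± 0.08 (adjusted p = 1.05e-09). Reads of Lyz2 may be divided with its close copy Lyz1. Ctss, cathepsin S of antigen-presenting cells, was 5.91, 6.93, 7.59 and 7.62 in control and 15.5, 14.7, 14.0 and 13.0 CPM in Notch2 libraries with vehicle (1.03 ± 0.11, adjusted p = 5.41e-07), and 8.35, 9.60, 9.21 and 9.67 in control and 18.7, 19.1, 17.9 and 14.9 CPM in Notch2 libraries with TNFα (0.97 ± 0.10, adjusted p = 1.15e-07).

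All 5 complement members were higher in Notch2 cells under both treatments. C1qa, C1qb and C1qc encode the chains of C1q, which macrophages secrete, and lie side by side on chromosome 4 between 136606009 and 136626161 (GRCm39). C1qa was 2.27, 2.66, 2.57 and 1.84 in control and 8.27, 7.24, 6.02 and 7.32 CPM in Notch2 libraries with vehicle (1.63 ± 0.16, adjusted p = 1.63e-07), and 3.07, 2.58, 2.80 and 3.92 in control and 10.7, 9.59, 6.78 and 3.86 CPM in Notch2 libraries with TNFα (1.43 ± 0.21, adjusted p = 4.6e-05). The lowest Notch2 TNFα value of C1qa, from the shallowest library, fell below the highest control TNFα value. C1qb was 2.98, 3.88, 3.47 and 2.80 in control and 9.37, 7.29, 6.38 and 7.39 CPM in Notch2 libraries with vehicle (1.22 ± 0.16) and 2.60, 2.19, 2.68 and 3.45 in control and 10.2, 9.65, 8.66 and 10.5 CPM in Notch2 libraries with TNFα (1.82 ± 0.16). C1qc was 3.04, 3.43, 2.64 and 3.63 in control and 11.7, 10.1, 8.09 and 8.51 CPM in Notch2 libraries with vehicle (1.59 ± 0.15) and 4.18, 3.35, 3.50 and 4.23 in control and 10.5, 9.88, 9.01 and 11 CPM in Notch2 libraries with TNFα (1.39 ± 0.14). For C1qb and C1qc the genotypes did not overlap under either treatment, and the adjusted p ranged from 3.35e-09 to 7.01e-06. The receptors for the anaphylatoxins C3a and C5a showed the same direction. C3ar1 was 3.59, 2.28, 2.51 and 2.86 in control and 5.03, 7.13, 6.43 and 5.02 CPM in Notch2 libraries with vehicle and 2.21, 2.96, 2.16 and 2.51 in control and 5.43, 4.56, 5.91 and 3.03 CPM in Notch2 libraries with TNFα, log2 differences of 1.06 (adjusted p = 0.000165) and 1.02 (adjusted p = 0.000571). C5ar1 was 1.16, 1.22, 1.35 and 1.73 in control and 4.68, 4.26, 3.37 and 3.11 CPM in Notch2 libraries with vehicle and 1.89, 1.43, 1.46 and 1.88 in control and 4.24, 4.74, 2.40 and 4.41 CPM in Notch2 libraries with TNFα, log2 differences of 1.48 (adjusted p = 2.85e-05) and 1.22 (adjusted p = 0.000713).

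Fc receptors and the ITAM adaptors through which they signal differed by genotype for 4 of 6 members with vehicle and 5 of 6 with TNFα. Tyrobp, the adaptor DAP12, was 1.33, 1.37, 1.61 and 1.37 in control and 4.34, 3.59, 4.46 and 3.98 CPM in Notch2 libraries with vehicle (1.53 ± 0.19, adjusted p = 3.5e-06) and 2.05, 1.65, 2.56 and 2.30 in control and 4.90, 4.91, 3.33 and 5.79 CPM in Notch2 libraries with TNFα (1.09 ± 0.21, adjusted p = 0.000665). Fcer1g, the common γ chain, was 1.38, 1.07, 1.61 and 1.43 in control and 3.58, 3.59, 3.84 and 2.51 CPM in Notch2 libraries with vehicle (1.28 ± 0.21) and 1.42, 2.03, 1.81 and 2.51 in control and 4.77, 6.20, 5.79 and 6.35 CPM in Notch2 libraries with TNFα (1.53 ± 0.20). Trem2, a lipid receptor that pairs with DAP12, was 1.88, 2.89, 1.87 and 1.49 in control and 5.30, 3.54, 3.94 and 3.20 CPM in Notch2 libraries with vehicle and 2.44, 1.98, 1.81 and 1.99 in control and 4.10, 3.45, 3.51 and 7.17 CPM in Notch2 libraries with TNFα (0.98 and 1.02, adjusted p = 0.00368 and 0.00305). For these 3 genes the control and Notch2 libraries did not overlap under either treatment. Fcgr3, an activating IgG receptor, was 2.38, 1.83, 3.09 and 2.14 in control and 4.06, 3.23, 3.84 and 4.39 CPM in Notch2 libraries with vehicle (0.73 ± 0.19, adjusted p = 0.0136) and 1.89, 0.878, 2.22 and 1.05 in control and 2.91, 3.27, 2.81 and 2.48 CPM in Notch2 libraries with TNFα (1.00 ± 0.27, adjusted p = 0.0145). The vehicle call was lost without Notch2 library 4 (adjusted p = 0.0731) or control library 2 (0.0546), and the TNFα call without Notch2 library 2 (0.0765), control library 2 (0.0719) or control library 4 (0.0519). Fcgr2b, the inhibitory IgG receptor, was 0.387, 0.685, 0.515 and 0.417 in control and 0.620, 0.821, 0.622 and 0.874 CPM in Notch2 libraries with vehicle and passed with TNFα, at 0.630, 0.878, 0.700 and 0.523 against 1.59, 1.58, 1.29 and 2.76 CPM (1.25 ± 0.34, adjusted p = 0.0136), and its log2 value with vehicle was 0.61 ± 0.36 (adjusted p = 0.356). Fcgr1, the high-affinity IgG receptor, passed in neither (0.48 ± 0.53 and 1.12 ± 0.51). Fcgr2b and Fcgr3 are close copies whose reads the counting could divide.

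Lectins and scavenger receptors, through which macrophages bind particles and glycans, were higher in Notch2 cells for 4 of 5 members tested with vehicle and 4 of 5 with TNFα. Mrc1, the mannose receptor, was 3.70, 5.48, 5.92 and 6.07 in control and 8.82, 9.24, 9.29 and 8.26 CPM in Notch2 libraries with vehicle (0.76 ± 0.14, adjusted p = 0.000804) and 2.84, 3.40, 1.75 and 2.98 in control and 5.56, 5.20, 5.09 and 6.07 CPM in Notch2 libraries with TNFα (0.97 ± 0.20, adjusted p = 0.000954). Msr1, scavenger receptor A, was 1.77, 2.28, 1.99 and 2.02 in control and 3.72, 3.54, 4.15 and 3.59 CPM in Notch2 libraries with vehicle (0.90 ± 0.18, adjusted p = 0.00117) and 1.97, 2.85, 2.97 and 2.72 in control and 6.42, 7.13, 5.21 and 3.59 CPM in Notch2 libraries with TNFα (1.16 ± 0.19, adjusted p = 9.69e-05). The genotypes were disjoint for both receptors under both treatments. Marco, a scavenger receptor with a collagenous stalk, was 0.221, 0.0761, 0.0643 and 0.119 in control and 0.551, 0.564, 0.674 and 0.253 CPM in Notch2 libraries with vehicle, 1 to 4 counts per control library, and its call there (1.93 ± 0.59, adjusted p = 0.0386) was lost without Notch2 library 1, 2 or 3 or control library 2, 3 or 4 (adjusted p 0.0526 to 0.129) and with DESeq2 (0.063). With TNFα it was 0.473, 1.04, 0.641 and 1.1 and 4.77, 3.63, 4.27 and 1.38 CPM (2.19 ± 0.29, adjusted p = 3.45e-06), and all 4 Notch2 libraries were above the control libraries. Clec4e, the receptor Mincle for mycobacterial and damaged-cell lipids, could not be tested with vehicle and was 1.42, 1.43, 1.34 and 1.93 in control and 3.91, 3.45, 3.22 and 2.76 CPM in Notch2 libraries with TNFα (1.16 ± 0.22, adjusted p = 0.000644). Cd163, the haemoglobin scavenger receptor, had 0 counts in each control vehicle library and 4, 4, 3 and 8 counts in the Notch2 vehicle libraries, at least 1.07-fold higher against 3 counts per library (adjusted p = 0.0178), and it had 2 counts in all in each TNFα group. Clec7a, the β-glucan receptor Dectin-1, was 0.387, 0.152, 0.193 and 0.357 in control and 0.138, 0.154, 0.571 and 0.345 CPM in Notch2 libraries with vehicle and 0.315, 0.713, 0.350 and 0.470 in control and 1.32, 0.819, 1.17 and 0.552 CPM in Notch2 libraries with TNFα, and did not pass in either (0.16 ± 0.56 and 1.13 ± 0.40, adjusted p = 0.917 and 0.0786).

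Ctsk and Acp5, the osteoclast members that could be tested for genotype, did not follow the macrophage genes in that comparison. Ctsk was 180.1, 184, 185 and 175 CPM in control vehicle and 198, 182, 181 and 171 CPM in Notch2 vehicle, and 176, 173, 169.5 and 173 in control and 181, 175, 161 and 152 CPM in Notch2 libraries with TNFα. The genotypes overlapped under both treatments, and the log2 differences of 0.02 (95% interval -0.09 to 0.13) and -0.03 (-0.15 to 0.10) did not pass. Acp5 was 8.62, 7.46, 8.04 and 7.68 in control and 7.03, 7.29, 7.78 and 6.63 CPM in Notch2 libraries with vehicle and 12.8, 11.2, 14.8 and 12 in control and 12.4, 14.3, 15.2 and 16.6 CPM in Notch2 libraries with TNFα, with genotype differences of -0.15 (-0.39 to 0.10) and 0.19 (-0.05 to 0.42) that did not pass either. The upper bounds for both genes lie under the lowest called genotype difference among members counted in both groups, which was 0.65. Ocstamp and Dcstamp, which encode membrane proteins needed for osteoclast fusion, were at or under 3 counts in every library. Cx3cr1, the fractalkine receptor, gave 0 to 8 counts per library and passed nowhere.

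**Figure D2:**
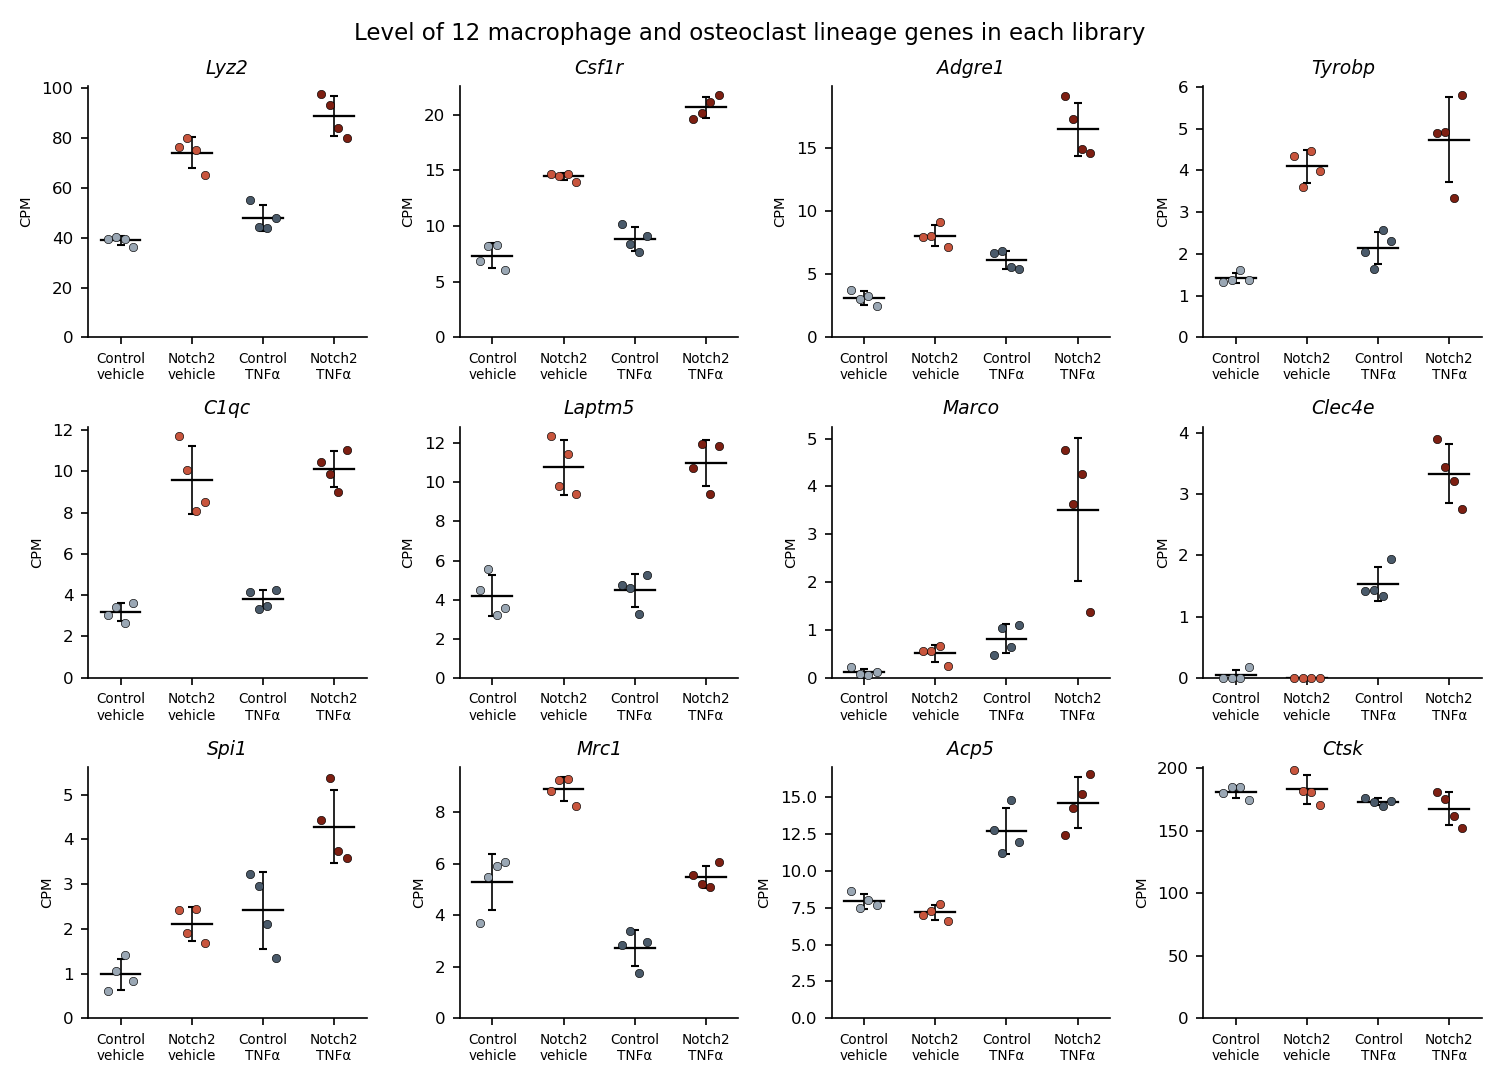
Level of 12 members in each library, in CPM on linear axes that start at 0, with points for the 4 libraries of a group, a line at the mean and a bar of 1 SD. Lyz2, Csf1r, Adgre1, Tyrobp, C1qc, Laptm5, Marco, Spi1 and Mrc1 have higher means in Notch2 than in control cells under each treatment. Lyz2, Adgre1, Marco, Spi1 and Acp5 are higher and Mrc1 is lower with TNFα in both genotypes, Clec4e is at or near 0 with vehicle, and Ctsk lies between 152 and 198 CPM throughout.

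Fewer members were called for TNFα than for genotype, and the share called was below that of all genes in control cells and above it in Notch2 cells. In control cells 11 of 33 members tested were called, 10 higher and 1 lower, compared with 44.2% of 19338 genes (23.3% higher, 20.9% lower). Without control vehicle library 4 and control TNFα library 4, 9 members were called, 8 higher and 1 lower, and the calls lost were those of Tyrobp and Ms4a7. In Notch2 cells 18 of 35 members were called, 17 higher and 1 lower, compared with 44.5% of 19633 genes (22.6% higher, 21.9% lower). The 4 TNFα libraries lay wholly above the 4 vehicle libraries for 9 members in control cells (21.5% of all genes) and 14 in Notch2 cells (19.8%), and wholly below for 1 (20.2%) and 2 (20.4%). Median log2 changes, TNFα over vehicle, were 0.38 in control and 0.35 in Notch2 cells, or 0.30 and 0.35 with low groups set to 3 counts, compared with 0.039 and 0.026 over all genes. Requiring in addition a log2 change of at least 1 in size left 5 members in control cells (11.8% of all genes) and 8 in Notch2 cells (13.9%). Comparisons of TNFα and of genotype share libraries, so their calls for a gene are not independent of each other.

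**Figure D3:**
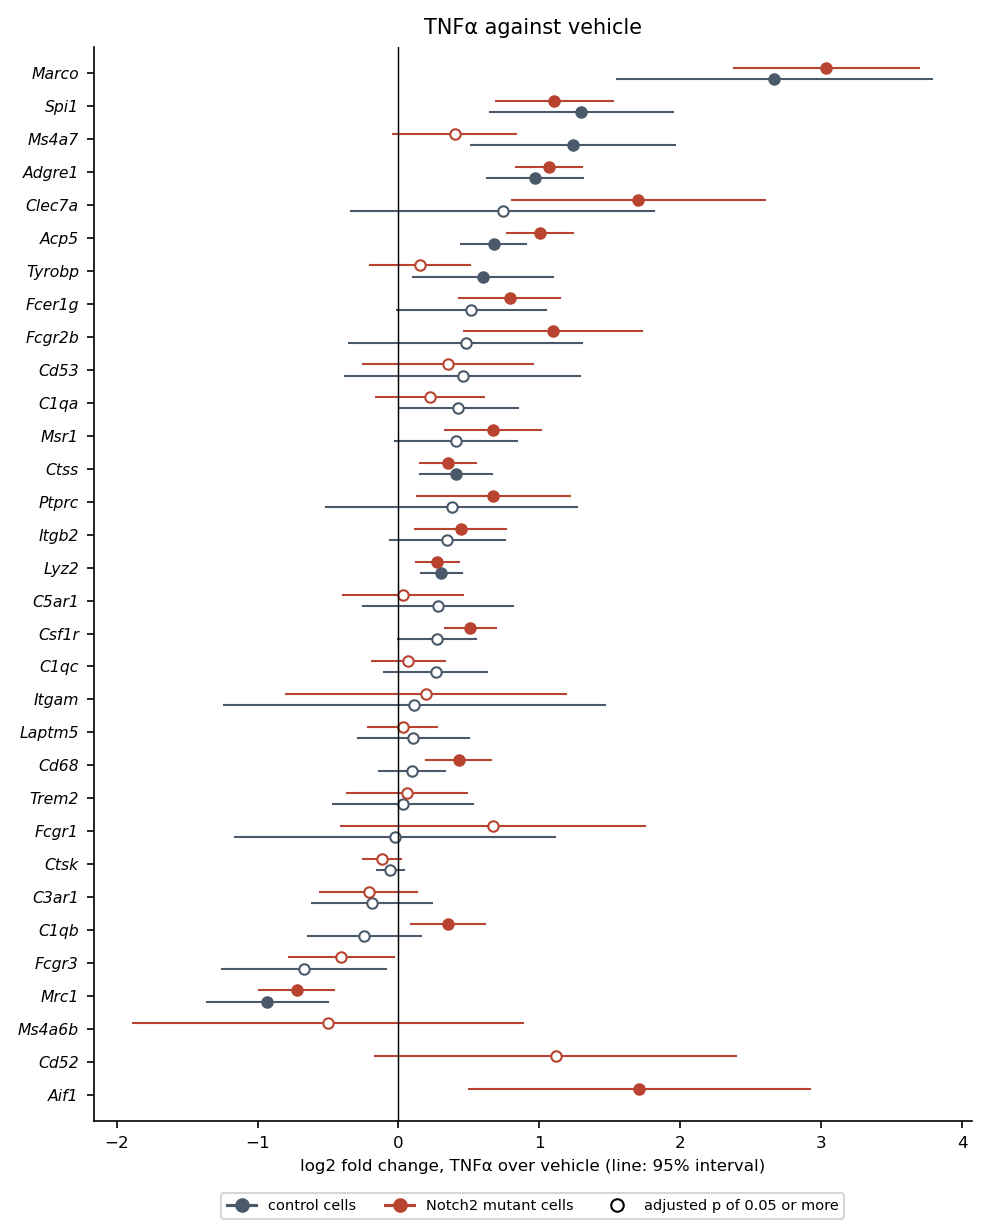
Log2 fold change of each member, TNFα over vehicle, with its 95% interval, in control cells (grey) and Notch2 mutant cells (red). Filled points passed an adjusted p under 0.05, and members with a group at or under 3 counts in every library, Clec4e among them, are left out of that comparison. Marco has the highest values, 2.67 and 3.04, and Mrc1 has the lowest that passed, -0.93 and -0.72.

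There were 8 members called for TNFα in both genotypes, of which 7 rose and Mrc1 fell. Clec4e, close to absent with vehicle, had 0 counts in 7 of the 8 vehicle libraries and 3 counts in control vehicle library 4, which also had the raised Icam1. In control cells its 104 counts with TNFα against 3 with vehicle gave a ratio of 32.8 (95% counting interval 10.9 to 162), and in Notch2 cells, where vehicle counts were 0, it was at least 22.8-fold higher against 3 counts per library. The 2 values are of different kinds and were not compared. With control vehicle library 4 left out, control vehicle was also at 0 and the fitted log2 value became 7.66, compared with 4.82 with all 8 libraries. The lowest value with a library left out was 4.39, and the call held in each of these fits (highest adjusted p = 1.39e-05). Its adjusted p was 7.31e-07 in control and 4.18e-12 in Notch2 cells. Marco rose by 2.67 ± 0.54 in control cells (adjusted p = 0.000301) and by 3.04 ± 0.32 in Notch2 cells (adjusted p = 9.77e-09), log2 values, with TNFα libraries above every vehicle library in each genotype. Spi1 rose by 1.30 ± 0.31 (adjusted p = 0.00165) and 1.1 ± 0.20 (adjusted p = 5.12e-05), although control TNFα library 4, at 1.36 CPM, lay below control vehicle library 3, at 1.42 CPM. Adgre1 rose by 0.97 ± 0.16 (adjusted p = 4.49e-05) and 1.07 ± 0.11 (adjusted p = 1.03e-08), and Acp5 by 0.67 ± 0.11 (adjusted p = 3.37e-05) and 1.01 ± 0.11 (adjusted p = 3.11e-08). For both genes every TNFα library exceeded every vehicle library of the same genotype. The lysosomal enzymes moved least, Lyz2 by 0.30 and 0.28 (adjusted p = 0.00103 and 0.00327) and Ctss by 0.41 and 0.35 (adjusted p = 0.00908 and 0.00393). The Ctss call in control cells was lost without control vehicle library 1 (adjusted p = 0.0541).

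Mrc1 went from 5.29 ± 1.09 to 2.74 ± 0.704 CPM in control cells and from 8.90 ± 0.475 to 5.48 ± 0.441 CPM in Notch2 cells (SD, n = 4), log2 changes with TNFα of -0.93 ± 0.21 (adjusted p = 0.000786) and -0.72 ± 0.13 (adjusted p = 3.42e-05). All TNFα libraries lay below all vehicle libraries of the same genotype. Fcgr3 had negative values in both genotypes that did not pass, -0.67 ± 0.28 (adjusted p = 0.0577) and -0.41 ± 0.18 (adjusted p = 0.0704), and the control value passed when control TNFα library 1 (0.0469), control TNFα library 3 (0.0168) or control vehicle library 2 (0.0486) was left out, as did the Notch2 value without Notch2 vehicle library 2 (0.0452). The control value also passed in the fit to all 16 libraries (adjusted p = 0.0264) and with no filter beyond 1 count (0.0272), so its place on either side of the threshold depended on the setting. In Notch2 cells Cd163 had 19 counts with vehicle and 2 with TNFα, a ratio of 5.20 (95% counting interval 1.25 to 46.0) that did not pass (adjusted p = 0.0712), and Cx3cr1 had 20 and 3 counts, a ratio of 3.65 (1.08 to 19.2) that did not pass either (adjusted p = 0.131).

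Further members were called for TNFα in 1 genotype only, which does not show that the genotypes differ in the response. In Notch2 cells alone, Csf1r (0.51 ± 0.09, adjusted p = 2.23e-05), Fcer1g (0.79 ± 0.17, adjusted p = 0.000478), Msr1 (0.67 ± 0.17, adjusted p = 0.00157) and Cd68 (0.43 ± 0.11, adjusted p = 0.00247) rose, and their values in control cells were 0.27, 0.52, 0.41 and 0.10. With total-count scaling Csf1r also passed in control cells (adjusted p = 0.0478). Itgb2 (0.44, adjusted p = 0.0234), C1qb (0.35, adjusted p = 0.0280) and Ptprc (0.67, adjusted p = 0.0398) passed there by less. The Itgb2 call was lost without Notch2 TNFα library 3 or Notch2 vehicle library 3 or 4 (adjusted p 0.0621 to 0.119), the C1qb call without Notch2 TNFα library 1 or 2 or Notch2 vehicle library 2, 3 or 4 (0.0619 to 0.115) and with DESeq2 (0.0541), and the Ptprc call without Notch2 TNFα library 2 or 3 or Notch2 vehicle library 4 (0.0907 to 0.194), with DESeq2 (0.0709) and in the fit to all 16 libraries (0.0802). Among low members, Clec7a (1.70 ± 0.44, adjusted p = 0.00207), Fcgr2b (1.1 ± 0.31, adjusted p = 0.00443) and Aif1 (1.71 ± 0.59, adjusted p = 0.0189) also rose in Notch2 cells, and the Aif1 call was lost without Notch2 TNFα library 1 (adjusted p = 0.184). In control cells alone, Ms4a7 rose by 1.24 ± 0.35 (adjusted p = 0.00578), a call that was lost without both libraries 4 (adjusted p = 0.0544). Ms4a6b also passed there (adjusted p = 0.00834), from 0 counts in each control vehicle library to 1, 5, 4 and 3 counts, too few for a fold. Tyrobp passed narrowly (0.60 ± 0.24, adjusted p = 0.0457), and the call was lost without control vehicle library 1, 2, 3 or 4 or control TNFα library 1, 3 or 4 (adjusted p 0.0529 to 0.139), with DESeq2 (0.0802), with RLE scaling (0.0506) and with no filter beyond 1 count (0.0843).

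Genotype alone was followed by 8 members, which were higher in Notch2 cells under both treatments and were called for TNFα in neither genotype. They were Laptm5, Cd53, C1qa, C1qc, Trem2, Fcgr3, C3ar1 and C5ar1, 4 of them complement members. For Laptm5 the 95% interval of the TNFα log2 change was -0.29 to 0.50 in control and -0.22 to 0.28 in Notch2 cells, and for C1qc it was -0.10 to 0.63 and -0.19 to 0.33. The upper bounds in Notch2 cells lie under the lower bounds of the genotype differences of the same genes, which were 1.04 and 0.98 for Laptm5 and 1.27 and 1.1 for C1qc. For C1qa the intervals were 0.00 to 0.85 and -0.16 to 0.61, for Trem2 -0.46 to 0.53 and -0.36 to 0.49, and for C5ar1 -0.25 to 0.81 and -0.39 to 0.46, wide enough to admit changes like those of Lyz2 and Ctss. For Cd53 they were wider, -0.38 to 1.29 and -0.25 to 0.96, so a change as large as that of Adgre1 lies within the interval in control cells. For C3ar1 they were -0.62 to 0.24 and -0.56 to 0.13, and for Fcgr3, -1.26 to -0.09 and -0.78 to -0.04, both below 0 although neither passed the adjusted test, and Fcgr3 in control cells passed under the alternatives given above. Of the others, 6 members were called for genotype under both treatments and for TNFα in both genotypes (Adgre1, Lyz2, Ctss, Mrc1, Marco and Spi1), and 8 for genotype under both treatments and for TNFα in 1 genotype (Cd68, Csf1r, Fcer1g, Msr1, Itgb2, C1qb, Tyrobp and Ms4a7). Acp5 was called for TNFα in both genotypes and not for genotype, and Clec4e for TNFα in both and for genotype with TNFα. Another 6 had other combinations (Aif1, Cd163, Ptprc, Clec7a, Fcgr2b and Ms4a6b), 5 had no call (Itgam, Cd52, Ctsk, Fcgr1 and Cx3cr1), and 3 were not tested. Leaving out a library at a time, or both libraries 4, gave 7 to 10 members that followed genotype only and 7 to 8 that followed TNFα.

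No member's TNFα response was called different between genotypes. In the fit of genotype by TNFα over all 16 libraries, 0 of 36 members passed an adjusted p under 0.05 by edgeR (0.474% of 21321 genes) and 0 by DESeq2, and 7 had an unadjusted p under 0.05 (8.71% of all genes), 4 with a higher and 3 with a lower response in Notch2 cells. The median log2 difference of the members was 0.089, compared with -0.010 over all genes. For the members that followed TNFα in both genotypes and were counted in every group, the differences were 0.10 ± 0.20 for Adgre1, -0.02 ± 0.11 for Lyz2, -0.05 ± 0.15 for Ctss, 0.21 ± 0.24 for Mrc1, -0.19 ± 0.37 for Spi1, 0.34 ± 0.16 for Acp5 and 0.33 ± 0.86 for Marco. The intervals were -0.24 to 0.19 for Lyz2 and -1.40 to 2.07 for Marco, so a difference was bounded closely for the abundant gene and hardly at all for the rare one. Among the C1q chains the value was 0.60 ± 0.23 for C1qb (adjusted p = 0.365), -0.20 ± 0.28 for C1qa and -0.19 ± 0.21 for C1qc.

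Summed over 16 members that mark macrophages, called the core here, the level was 81.3 ± 3.65 CPM in control vehicle, 167 ± 11.8 in Notch2 vehicle, 97.1 ± 7.93 in control TNFα and 208 ± 12.6 in Notch2 TNFα (SD, n = 4). The ranges, 77.0 to 85.4, 151 to 179, 89.0 to 107 and 195 to 222 CPM, did not overlap, and the ratio of Notch2 to control was 2.05 with vehicle and 2.14 with TNFα. TNFα over vehicle was 1.19 in control and 1.24 in Notch2 cells. Lyz2 made up 42.7 to 49.2% of the sum in the group means, and without it the genotype ratios were 2.18 and 2.41. Relative to the core, Marco rose from 0.150 ± 0.0914% of the core sum in control vehicle to 0.847 ± 0.328% with TNFα, and from 0.302 ± 0.0978% to 1.68 ± 0.698% in Notch2 cells. Mrc1 went the other way, from 6.52 ± 1.39% to 2.82 ± 0.703% and from 5.35 ± 0.279% to 2.65 ± 0.274%. Adgre1 rose from 3.85 ± 0.655% to 6.33 ± 0.740% and from 4.84 ± 0.420% to 7.91 ± 0.544%. For these 3 genes the shares with TNFα and vehicle did not overlap in either genotype, whereas Csf1r was 8.69 to 10.0% of the core in the 4 group means. The 4 osteoclast members summed to 182 to 190 CPM in the group means, with Notch2 to control ratios of 1.01 and 0.981. Ctsk made up most of that sum, at 181 ± 4.79 of 189 ± 4.85 CPM in control vehicle. The sum therefore mostly follows Ctsk and does not show the rise of Acp5 with TNFα.

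Other genes of the lineage, from lists outside the 38, moved with the core in part. Of 59 other myeloid genes, 18 of 52 tested were higher and 1 lower in Notch2 vehicle, and 24 of 52 were higher and 1 lower in Notch2 TNFα, with medians of 0.78 and 0.85. Over all genes 6.19% were called higher with vehicle and 5.63% with TNFα. Mpeg1, a pore-forming protein of macrophages, was higher in Notch2 vehicle than in control vehicle by 1.19 ± 0.10. Lcp1, an actin-bundling protein of leukocytes, was higher there by 1.27 ± 0.12. Stab1, a scavenger receptor of macrophages and sinusoidal endothelium, was higher in Notch2 TNFα than in control TNFα by 1.08 ± 0.10. Mertk, a receptor for apoptotic cells, was lower in Notch2 vehicle than in control vehicle (-0.29 ± 0.08). With TNFα, 21 were higher and 3 lower of 52 in control cells, and 25 higher and 3 lower of 56 in Notch2 cells, compared with 23.3% higher and 20.9% lower of all genes in control cells and 22.6% and 21.9% in Notch2 cells. Cybb, the catalytic subunit of the phagocyte oxidase, rose by 2.66 ± 0.26 in control and 3.01 ± 0.11 in Notch2 cells, and was higher in Notch2 cells with TNFα (1.29 ± 0.10). Cebpa, a transcription factor of myeloid and other cells, fell by 1.1 ± 0.11 and 1.46 ± 0.07. Several genes of this list, such as Cebpa and Cyba, were at 24 CPM or more in control vehicle and are also expressed outside the myeloid lineage.

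Of 18 other osteoclast genes, 11 of 17 were higher and 3 lower with TNFα in control cells, 10 of 17 higher and 2 lower in Notch2 cells, whereas 0 of 16 were higher and 3 lower in Notch2 vehicle and 3 of 17 were higher and 0 lower in Notch2 TNFα. The shares of all genes called for TNFα were those given for the myeloid list, and for genotype 6.19% were higher and 4.35% lower with vehicle and 5.63% and 4.31% with TNFα. Mmp9, gelatinase B, and Tcirg1, a subunit of the osteoclast proton pump, rose with TNFα in Notch2 cells by 4.73 ± 0.12 and 1.62 ± 0.07. Their means rose in both genotypes. Mmp9 went from 2.04 ± 3.09 to 43.5 ± 3.56 CPM in control cells and from 1.60 ± 0.312 to 43.0 ± 2.54 CPM in Notch2 cells. Tcirg1 went from 27.0 ± 2.41 to 75.6 ± 15.3 CPM and from 26.3 ± 1.25 to 80.4 ± 3.18 CPM. Nfatc1, the master factor of osteoclast formation, was lower in Notch2 vehicle by 0.26 ± 0.07 (adjusted p = 0.0164), and Atp6v0d2, a fusion-associated pump subunit, was higher in Notch2 TNFα by 1.82 ± 0.41 (adjusted p = 0.00322). Siglec15, a receptor of osteoclasts, never exceeded 3 counts. Several genes of this list were abundant in control vehicle, among them Src (57.0 CPM), Clcn7 (75.6 CPM) and Slc4a2 (177 CPM). Like Siglec15, the fusion genes Ocstamp and Dcstamp were at or under 3 counts in every library. Which cells expressed the genes of this list was not tested.

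Of 7 genes for signals that feed the lineage, 6 were higher and 1 lower with TNFα in control cells, and 5 of 6 tested were higher and 1 lower in Notch2 cells. Between genotypes, 1 of 6 tested was higher and 1 lower in Notch2 vehicle, and 1 of 7 was higher and 2 lower in Notch2 TNFα. Of all genes, 23.3% were called higher and 20.9% lower with TNFα in control cells, and 22.6% and 21.9% in Notch2 cells. For genotype the shares were 6.19% and 4.35% with vehicle and 5.63% and 4.31% with TNFα. Csf1, the growth factor of macrophages, was 1480.2 ± 30.3 CPM in control vehicle and 1662 ± 65.2 in Notch2 vehicle (0.17 ± 0.05, adjusted p = 0.0169), and rose with TNFα in control cells by 0.52 ± 0.03. With TNFα, Csf1 was 2114 ± 40.9 CPM in control and 2049 ± 33.7 CPM in Notch2 cells. Il34, the other ligand of CSF1R, rose by 2.41 ± 0.17 and 2.37 ± 0.09 with TNFα and was higher in Notch2 TNFα by 0.39 ± 0.08. Tnfrsf11b, the decoy receptor osteoprotegerin, was 465 ± 18.7 CPM in control vehicle, 266 ± 10.4 in Notch2 vehicle, 245 ± 21.1 in control TNFα and 100.4 ± 6.38 in Notch2 TNFα. It was the gene of this list whose TNFα change differed between genotypes (-0.47 ± 0.09, adjusted p = 0.00383). RANKL, encoded by Tnfsf11, was 1.37 ± 0.293, 1.80 ± 0.393, 5.66 ± 0.828 and 3.43 ± 0.912 CPM in the same order, higher with TNFα in control cells (2.06 ± 0.20) and lower in Notch2 than in control cells with TNFα (-0.61 ± 0.18, adjusted p = 0.0245).

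Markers of other cell types were measured in the same libraries, since the cultures were not sorted. Chondrocyte markers were lower in Notch2 cells for 16 of 16 genes under both treatments, and their sum went from 53965 ± 1549 to 34499 ± 2343 CPM with vehicle and from 39966 ± 3225 to 22336 ± 1295 CPM with TNFα, with ranges that did not overlap between genotypes. Endothelial markers were higher in Notch2 cells for 5 of 8 genes with vehicle and 3 of 8 with TNFα, and their sum went from 8.37 ± 0.903 to 19.2 ± 1.95 CPM and from 11 ± 1.35 to 21.6 ± 3.03 CPM, also without overlap, with Tek making up most of it. Of 8 fibroblast markers, 4 were higher and 2 lower with vehicle and 5 higher and 1 lower with TNFα. The shares of all genes called were 6.19% higher and 4.35% lower with vehicle, and 5.63% and 4.31% with TNFα. The chondrocyte, endothelial and fibroblast lists moved with genotype alongside the macrophage members, and their part in the result was not tested. Most markers of other leukocytes were near or at 0: 9 of 12 neutrophil, 10 of 15 T and NK cell, 5 of 7 B cell, 5 of 8 mast cell and 5 of 8 dendritic cell markers were at or under 3 counts in every library, among them Ly6g, Mpo, Elane, Flt3 and Tpsb2, and Cd3e, Cd8a, Ms4a1, Xcr1 and Clec9a were at 0. All 6 erythroid markers were at or under 3 counts in every library. Summed levels in the 4 group means were 0.306 to 2.15 CPM for neutrophil, 2.33 to 3.74 for T and NK cell, 0.998 to 5.82 for B cell, 3.43 to 4.80 for mast cell and 7.09 to 17.7 CPM for dendritic cell markers, most of the last from Zbtb46. Some of the detected markers were called for genotype, 2 of 5 T and NK cell markers tested with vehicle and 1 of 5 with TNFα, and 1 of 2 B cell markers with TNFα, all higher in Notch2 cells, and none of the neutrophil, mast cell or dendritic cell markers tested. Of all genes, 6.19% were called higher with vehicle and 5.63% with TNFα. Gzmb, granzyme B of cytotoxic lymphocytes, went from 0.107 ± 0.131 to 0.709 ± 0.135 CPM with vehicle (adjusted p = 0.00398) and from 0.0765 ± 0.0733 to 0.746 ± 0.173 CPM with TNFα (adjusted p = 0.00160). Trac, the T cell receptor α constant region, went from 0.361 ± 0.133 to 1.39 ± 0.380 CPM with vehicle (adjusted p = 0.000603) and was lower with TNFα in both genotypes, at 0.0872 ± 0.0476 and 0.254 ± 0.0658 CPM. Blnk, a B cell linker protein, was 0.556 ± 0.0598 in control and 1.71 ± 0.638 CPM in Notch2 cells with TNFα (adjusted p = 0.00316). These markers moved with genotype alongside the macrophage members, and their part in the result was not tested. Pax5, a B cell transcription factor, followed TNFα, from 0.452 ± 0.549 to 4.40 ± 0.618 CPM in control (adjusted p = 0.00108) and from 0.0601 ± 0.0709 to 4.07 ± 1.31 CPM in Notch2 cells (adjusted p = 1.48e-10), and made up most of the rise in the B cell sum.

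**Figure D4:**
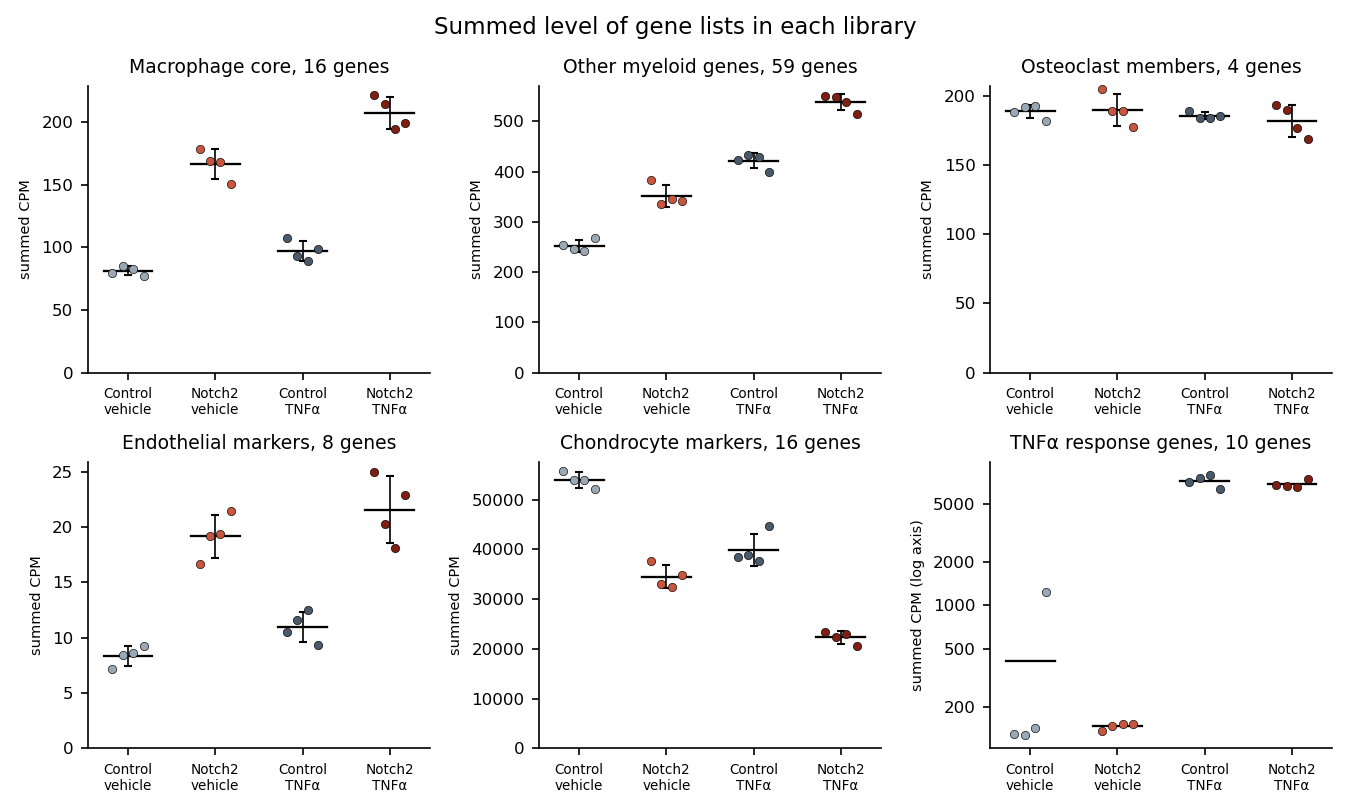
Summed CPM of 6 gene lists in each library, with points for the 4 libraries of a group, a line at the mean and a bar of 1 SD, on linear axes from 0 except for the TNFα response genes, which are on a log axis without SD. The macrophage core and endothelial lists are higher and the chondrocyte list lower in both Notch2 groups. The osteoclast members lie between 169 and 205 CPM, most of it from Ctsk. Control vehicle library 4 reaches 1240.1 CPM of TNFα response genes, compared with 127 to 141 CPM in the other control vehicle libraries.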

How the data were processed

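RNA from 16 libraries was sequenced as paired-end reads of 75 bp, aligned with HISAT2 and counted per Ensembl gene with HTSeq. The labels name HISAT2 2.1.0, SAMtools 1.9 and GRCm38, whereas the methods name GRCm39 and a later HISAT2, and no coordinate was taken from the files. The strand setting was not given in the sources used here. The authors deposited whole-number counts per gene, not normalized, for 55414 identifiers. The 5 summary entries, 8.81 to 12.1% of each library, were kept out of library sizes and tests, and 665 identifiers without a symbol were tested but not named.

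Depth was 3439726 to 44237300 counts (median 17062419), which limits precision for low genes. Counting intervals and floors cover counting error only, whereas the intervals of log2 changes also include the spread between replicates. Genes with at least 10 counts summed over the compared libraries were tested with edgeR 4.0.16 (R 4.3.3, TMM, robust quasi-likelihood), with Benjamini-Hochberg adjustment over all genes tested and adjusted p under 0.05 called. Each comparison used 8 libraries and the interaction all 16. Interval limits are 95%, two-sided. CPM divides counts by the TMM-scaled library size over the 16 libraries. A floor of 3 counts per library stood for a count of 0. DESeq2 1.42.0, other scalings and filters, a fit to 16 libraries, a replicate block and left-out libraries were alternatives. The study's unnamed covariates were not used. P-values measure the spread between these biological replicates. Replicates differed by more than sampling noise (chi-square per degree of freedom 2.14 to 16.0). The scripts were tested on simulated data. All 38 members are reported, and from other lists at most 3 genes per direction with the lowest adjusted p, plus markers at 0. Members and lists were chosen with earlier results of these data known. Gene positions are from GENCODE M39 (GRCm39) and upstream windows from RefSeq (GRCm38.p6).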

Additional observations from a re-analysis of the deposited data

Results flagged for a closer look

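Within a group of 4 libraries, 1 library lay far from the other 3 for 3 of 129 member and group combinations examined, and chance alone gives about 1 in 20. Tyrobp was 1.61 CPM in control vehicle library 3, above 1.33 to 1.37 CPM in the others. Cd53 was 0.276 CPM, 1 count, in Notch2 TNFα library 4, the shallowest library, below 1.81 to 2.05 CPM in the others. Clec4e was 1.93 CPM in control TNFα library 4, above 1.34 to 1.43 CPM in the others.

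For summed lists, control vehicle library 4 was high for growth signals, at 2345 CPM, and for the TNFα response genes, at 1240.1 CPM. Control TNFα library 4 was high for chondrocyte markers, at 44754 CPM, and low for dendritic cell markers, at 15.3 CPM. Mast cell markers were low in control vehicle library 1, at 3.10 CPM, and high in control TNFα library 2, at 5.87 CPM, and dendritic cell markers were high in Notch2 vehicle library 2, at 8.16 CPM.

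Outside the 38 genes, the response to TNFα differed between genotypes for 2 listed genes in the fit to all 16 libraries. The chondrocyte gene Matn1 had a log2 difference of -0.41 (adjusted p = 0.0305), and Tnfrsf11b had -0.47 (adjusted p = 0.00383).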

How the results depend on the processing

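The counts of members called stayed within 1.5 times the reported counts under each scaling, filter, tool and fit tried. Adding a log2 change of at least 1 in size lowered the TNFα counts to 5 in control and 8 in Notch2 cells, from 11 and 18. Leaving out 1 library at a time, or both libraries 4, gave 9 to 11 and 15 to 19 members for TNFα in control and Notch2 cells, 21 to 24 and 23 to 26 for genotype with vehicle and with TNFα, and 0 for the interaction. The scalings moved the median log2 change of all genes by less than 0.1.

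Replicate numbers did not pair the libraries: same-numbered libraries had correlations of their deviations from -0.171 to 0.126. With the replicate block the counts were 11 and 17 for TNFα in control and Notch2 cells, 23 and 25 for genotype with vehicle and with TNFα, and 0 for the interaction. Under the block Fcgr3 passed for TNFα in control cells (adjusted p = 0.0358), and Tyrobp there (0.0647), Ptprc for TNFα in Notch2 cells (0.0969), Marco for genotype with vehicle (0.0513) and Cd53 for genotype with TNFα (0.0976) did not pass. Values near 0 that were not called changed sign: with the block, C5ar1 and Itgam for TNFα in Notch2 cells became -0.0296 and -0.057, and with total-count scaling Fcgr1 for TNFα in control cells became 0.0415. With a library left out, log2 values that crossed 0 ranged as follows. For TNFα in control cells they were Cd52 -0.0574 to 1.63, Fcgr1 -0.384 to 0.364, Itgam -0.193 to 0.451, Laptm5 -0.0633 to 0.251, Trem2 -0.0956 to 0.228. For TNFα in Notch2 cells they were C1qc -0.00202 to 0.171, C5ar1 -0.121 to 0.25, Itgam -0.547 to 0.402, Laptm5 -0.0433 to 0.108, Trem2 -0.0734 to 0.208. For genotype with vehicle they were Clec7a -0.244 to 0.375, Ctsk -0.0228 to 0.0461, Cx3cr1 -0.088 to 0.503, Fcgr1 -0.147 to 0.836, and with TNFα Ms4a6b -0.39 to 0.22. For the interaction they were Adgre1 -0.0185 to 0.198, Ctss -0.117 to 0.0122, Lyz2 -0.0853 to 0.0466, Marco -0.157 to 0.545. None of these was called in the reported fit, and the cause was not tested. Depth limits the low members, for which 1 to 3 counts separate groups.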
